A study of Arabidopsis thaliana with 24 samples.

Results

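Tetraploid and diploid seedlings of the Arabidopsis thaliana ecotype Col-0 were compared by RNA-seq, with 2 libraries of each ploidy. These 4 libraries were chosen by their group labels, 4xCol and 2xCol, from the 24 libraries of a study of H3K27 trimethylation and flowering time in polyploid Col-0 and Ler. The other 20 are 4 RNA-seq libraries of diploid and tetraploid Ler, used below only side by side, and 16 ChIP-seq libraries, not analysed here. All seedlings were 2 weeks old and soil-grown at 22 °C. The labels name long days of 16 h light and short days of 8 h, without assigning either to a library. The groups differed by ploidy as labelled, with no transgene or other agent named, and neither the origin of the tetraploid line nor whether it is 1 line is stated by the labels. Any difference in genotype between the diploid and tetraploid lines, beside ploidy, cannot be told apart from it in these groups, and this holds for every tetraploid against diploid value below. Replicates are not stated to come from separate cultures, so p-values reflect only how far these libraries differ among themselves, and that spread may be technical.

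A tetraploid carries the same chromosomes as its diploid parent in more copies, so the dose of each gene relative to the others is kept. Its nuclei and many of its cells are larger, which changes the ratio of cell surface to volume, and organs such as leaves and flowers are often larger. RNA-seq of equal library sizes measures each transcript as a share of all transcripts and not as molecules per cell, so a change of all genes together is not visible here. In seedlings, which are mixtures of cell types, fewer cells of a type and less RNA per cell cannot be told apart either.

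For each gene, the authors' deposited table gives a mean normalized read count over the 4 libraries and a log2 fold change with its standard error, printed here after ±. The sign of the fold change is not stated. It was read as tetraploid over diploid, because FLC is known to be higher in tetraploid Col-0 and because diploid Col-0 is known for low ESP and high ESM1, so the directions of these 3 genes are not results. Whole reads per library were recovered from the means and fold changes for 23177 of 23202 genes, and are given as normalized reads, meaning reads divided by the library's size factor. The libraries held between 17346344 and 21913015 recovered reads, with size factors from 0.915 to 1.14. The 25 genes without recovered reads all had means of at least 15652, among them the photosynthesis genes RBCS1A and RCA, and held 14.3% of the summed mean. Each library is called a or b within its ploidy, a name that does not stand for a replicate number. Between the diploid libraries the median absolute log2 difference of genes with a mean of at least 100 was 0.10, and between the tetraploid libraries 0.09.

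The 6 leaf and mesophyll markers had means between 46514 and 570856. The authors' deposited table called 1 of them higher and 2 lower. Of 9 root markers 7 were listed, with 0 calls in the authors' DESeq2 fit, and their means ran from 1.25 for the root aquaporin gene TIP2;3 to 1552 for SCR, a factor of the root endodermis that is also active in the shoot. Root markers with a mean of at least 10 numbered 4. The labels do not say whether roots were taken. None of the 7 listed flower organ markers had a mean of at least 10, the highest being 8.86, and 0 of them passed in that fit. Summed normalized reads of seed and embryo markers were 15.8 and 5.07 in the diploid libraries and 27.6 and 50.3 in the tetraploid ones, and 2 oil body genes, OLEO1 and OLEO2, both passed as higher by the authors' deposited table. OLEO1 had 0 and 0 normalized reads in diploids and 6.14 and 16.4 in tetraploids, and OLEO2 0.875 and 0 in diploids and 9.20 and 22.9 in tetraploids. The part of these markers in the other results was not tested. Guard cell markers summed to 1513 and 1425 in diploids and 1539 and 1418 in tetraploids, with the potassium channel gene KAT1 called lower in the authors' deposited table, −0.38 ± 0.14. Trichome and phloem companion cell markers gave 0 calls among 3 and 3 members by the authors' DESeq2 fit. For the root, flower, trichome and companion cell markers 0 had an unadjusted p under 0.05 and limma called 0.

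In the authors' deposited table, 3290 of 21420 genes tested had an adjusted p under 0.05, which is 15.4 percent, and such genes are called changed below. Higher in the tetraploid were 1527 of these (7.13 percent of all tested) and lower 1763 (8.23 percent). The median log2 fold change over all tested genes was 0.00, a centre set by the scaling with size factors. Most called changes were small, with a median of 1.58-fold, and 1094 genes (5.11 percent) were called and changed at least 2-fold. Lower genes made up 62.0% of those changed at least 2-fold, 64.8% of those changed at least 4-fold and 68.5% of the 267 with a fitted change of at least 16-fold. Fitted folds of genes without reads in 1 ploidy are no bounds, and with these genes at their bound against a floor of 3 reads over that ploidy, 211 genes reached 16-fold, 71.1% of them lower, while the 2-fold and 4-fold counts stayed at 1094 and 534.

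Other readings of the same data gave other counts. An empirical null, which divides the Wald statistics by the spread their central part shows (1.44 times the theoretical one), left 1470 calls, 618 higher and 852 lower. With limma on the recovered reads 4905 genes were called, 3227 of them called by the authors too. Leaving out diploid library a or b, limma called 0 genes, with 6003 and 5803 genes at an unadjusted p under 0.05, and without tetraploid library a or b it called 410 and 428. In those fits 1 library stands for its ploidy and is assumed to vary like the other group. Of the authors' 3290 calls, 3284 had a value in each of the 4 fits, and all of these kept their direction in each.

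**Figure D1:**
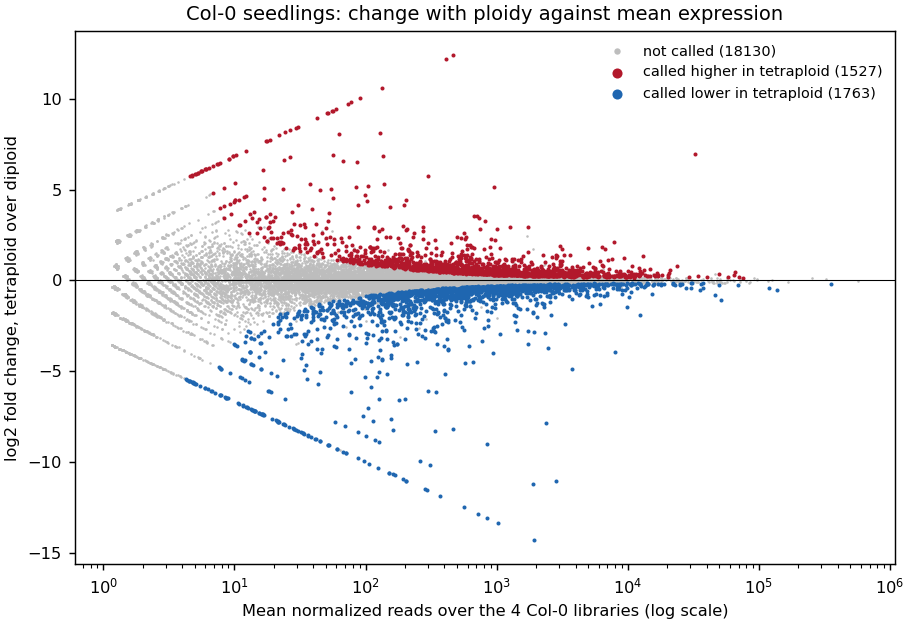
Log2 fold change of tetraploid over diploid Col-0 (vertical axis) against the mean normalized reads over the 4 libraries (horizontal, log scale) for 21420 tested genes. Red points are the 1527 called higher and blue points the 1763 called lower in the tetraploid. Large changes extend further down than up, and the straight lower and upper edges are genes without reads in 1 ploidy.

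How many genes were called depended on how strongly they were expressed. Among genes with a mean under 10, 2.57% were called, and among those from 1000 to 10000, 28.9%. Of the 63 called genes under a mean of 10, 49 had 0 reads in 1 ploidy. Their median fold was 58.3 as fitted and 8.98 with those 49 at their bound, against 1.3 from 1000 to 10000. The counts of families below are read with that limit. Each is also to be set beside 7.13 percent higher and 8.23 percent lower among all tested genes. Over all lists, 19.5% of 2033 tested genes were called, against 15.4 percent of all tested genes.

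Wald statistics are log2 fold changes divided by their standard errors. The highest included 3 named genes of the synthesis or breakdown of glucosinolates, the sulfur-rich defence compounds of crucifers. ESP, whose protein steers the breakdown of glucosinolates to nitriles, had 526 and 523 normalized reads in the diploid libraries and 65267 and 63826 in the tetraploid ones. BCAT4, which starts the chain elongation of methionine for glucosinolates made from it, had 1426 and 1207 in diploids and 4858 and 4737 in tetraploids. Its log2 fold change was 1.86 ± 0.09 in the authors' deposited table. CYP79F1, which acts on the elongated methionine, had 2425 and 2100.3 against 7531 and 7924 normalized reads in the same order, 1.77 ± 0.08 in the authors' deposited table. In each of these 3 genes both tetraploid libraries lay above both diploid ones, and the libraries of a ploidy lay close together.

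The chaperone gene HSP70 (AT3G12580) had 284 and 303 normalized reads in diploids and 2209 and 2219 in tetraploids, 2.92 ± 0.11 in the authors' deposited table. The glutathione S-transferase gene GSTU26 had 124 and 99.3 against 1342 and 1281, an 11.7-fold difference by the authors' deposited table (3.55 ± 0.16). AK3, an aspartate kinase of the pathway that leads to lysine, threonine and methionine, had 1497 and 1426 against 4753 and 4870.1, 1.72 ± 0.08 in the authors' deposited table. All 3 genes again separated the ploidies fully. The other 6 of the 12 highest are locus codes without a name in the gene table used, namely AT2G25450, AT1G27540, AT3G18535, AT2G42170, AT1G14250 and AT1G27580, with log2 fold changes between 2.09 ± 0.07 and 3.55 ± 0.16 in the authors' deposited table. AT1G27540 and AT1G27580 lie near each other on chromosome 1.

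At the other end stood ESM1 and genes of defence, among them 2 immune receptors with a name in the gene table used. ESM1, which favours isothiocyanates over nitriles when glucosinolates break down, had 14561 and 15586 normalized reads in diploids and 1009 and 974 in tetraploids. SNC1, an intracellular immune receptor whose overactive allele gives constant defence, had 3203 and 3204 against 265 and 292, 11.5-fold lower by the authors' deposited table (−3.53 ± 0.11). RPP1, an immune receptor for downy mildew, had 2497 and 2523 against 414 and 331, −2.75 ± 0.12 in the authors' deposited table. CNGC12, an ion channel gene linked to defence and cell death, fell as well, from 3826 and 4486 in diploids to 577 and 542 in tetraploids (−2.89 ± 0.10, the authors' deposited table). In all 4 both tetraploid libraries lay below both diploid ones.

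The remaining 8 of the 12 lowest statistics belong to locus codes without a name, and which of them encode immune receptors was not looked at. AT3G62530 had 7221 and 7422 normalized reads in diploids and 226 and 271 in tetraploids, 29.5-fold lower by the authors' deposited table (−4.88 ± 0.10). AT1G73490 had 1326 and 1205 against 52.2 and 57.9, −4.53 ± 0.19 in the authors' deposited table, and AT3G44670, a neighbour of RPP1, 1768 and 1782 against 116 and 102, −4.03 ± 0.15 there too. Both libraries of a ploidy stood together in all of these. AT1G58602, AT1G58807, AT1G58848 and AT1G59218 come from 1 stretch of chromosome 1 with repeated gene copies, and their log2 fold changes ran from −3.71 ± 0.10 to −2.80 ± 0.10 in the authors' deposited table. The sources used here do not say how reads were divided between near-identical copies there, so these values are uncertain.

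**Figure D2:**
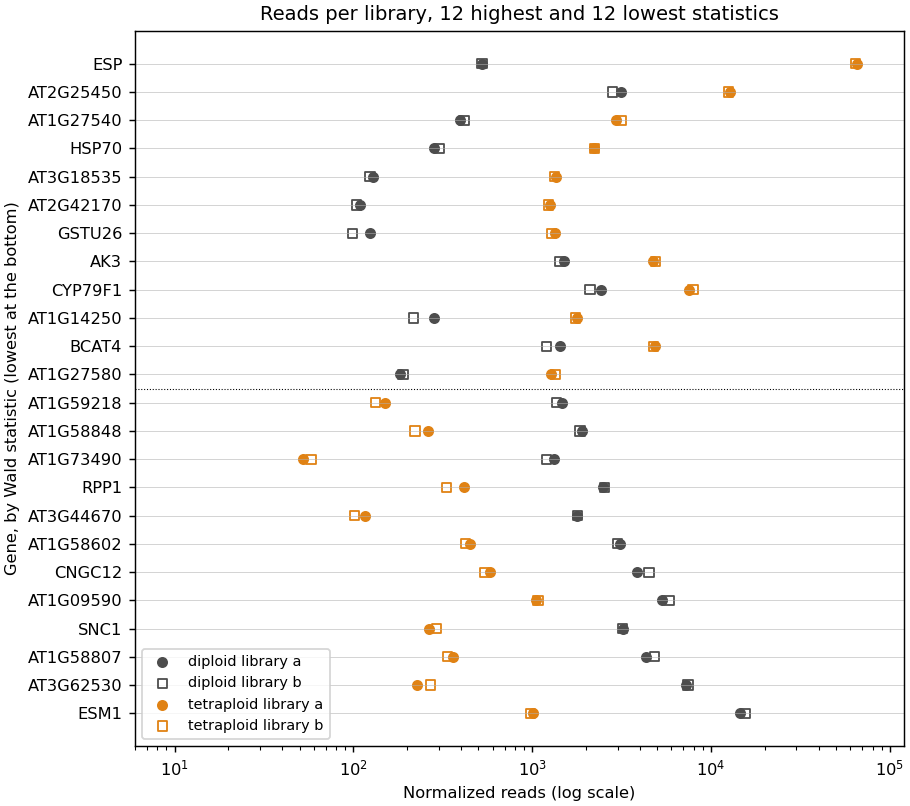
Normalized reads (horizontal, log scale) of the 12 genes with the highest and the 12 with the lowest Wald statistic. Grey symbols are diploid and orange symbols tetraploid libraries, with filled circles for library a and open squares for library b. The libraries of a ploidy nearly coincide for every gene, from 526 and 523 against 65267 and 63826 for ESP at the top to 14561 and 15586 against 1009 and 974 for ESM1 at the bottom.

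Intracellular immune receptors are proteins with a nucleotide-binding domain and leucine-rich repeats that sense pathogen proteins inside the cell, and each family member recognises few or single effectors. Of 31 tested members of a list of named receptors, 2 rose and 12 fell, 38.7% lower against 8.23 percent of all tested genes, with a median log2 fold change of −0.35 against 0.00 over all. The largest falls lay in 2 pairs of neighbouring genes. In the first, DAR4, a receptor with a LIM domain, had 1039.6 and 1152 normalized reads in diploids and 48.1 and 45.9 in tetraploids (−4.54 ± 0.20, the authors' deposited table). Its neighbour CSA1, the receptor with which it works as a pair, had 375 and 402 against 1440.0 and 1349 and so rose (1.84 ± 0.12, the authors' deposited table). The members of this receptor pair thus moved in opposite directions, each with both tetraploid libraries on 1 side of both diploid ones.

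In the second pair VICTL had 740.3 and 749.7 normalized reads in the diploid libraries and 0 reads in both tetraploid ones, at least 470.1-fold lower against a floor of 3 reads over the tetraploid libraries. VICTR, its neighbour, a receptor known for arresting root growth in response to a synthetic compound, had 403 and 387 in diploids and 12.3 and 20.8 in tetraploids (−4.59 ± 0.34, the authors' deposited table). Smaller falls were called for WRR4, which gives resistance to white rust (−1.56 ± 0.16), RPP13 (−0.81 ± 0.12), TTR1 (−0.81 ± 0.15) and RRS1 (−0.53 ± 0.19) in the authors' deposited table. RPP4, which lies in the same cluster as SNC1, rose there from 370.2 and 342 to 521 and 577 normalized reads (0.62 ± 0.16, the authors' deposited table). As counted, receptors of 1 cluster did not all move together. How reads were divided between any similar copies in that cluster is not stated by the sources used here. With an empirical null, 10 of the 12 lower calls remained past the threshold.

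Receptor-like proteins and cysteine-rich receptor-like kinases sit at the cell surface, many of them acting in the perception of pathogens or in the response to oxidative stress. Of 48 receptor-like proteins tested, 1 rose and 12 fell (25%), with a median of −0.62, the lowest of the 57 lists. RLP41 had 329.9 and 242 normalized reads in diploids and 8.18 and 7.65 in tetraploids, −5.18 ± 0.46 in the authors' deposited table, and RLP47 291 and 298 against 35.8 and 20.8 (−3.37 ± 0.31). RLP34 had 729.8 and 469 against 181 and 201 (−1.65 ± 0.21, the authors' deposited table), and its diploid libraries differed by more than most. RLP23, the receptor for a peptide found in many bacterial, fungal and oomycete proteins, was also called lower (−0.86 ± 0.30, the authors' deposited table). Against this trend RLP37 rose from 334 and 311 to 780.3 and 729.9 normalized reads, 1.23 ± 0.15 in the authors' deposited table. With an empirical null 4 of the 12 lower calls were left.

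Among 38 cysteine-rich receptor-like kinases, 3 rose and 9 fell, with a median of −0.31. The falls are 23.7%, against 8.23 percent of all tested genes. CRK41 rose from 309 and 250.3 to 1047 and 970.3 normalized reads, 1.85 ± 0.15 in the authors' deposited table. CRK22, CRK6 and CRK29 fell, by the authors' deposited table at −1.33 ± 0.17, −2.03 ± 0.29 and −2.27 ± 0.33. CRK6 and CRK22 belong to a tandem array on chromosome 4, in which CRK7, CRK18 and CRK21 also fell and CRK23 rose (1.96 ± 0.37, the authors' deposited table). CRK7 was uneven, with 536 and 157 normalized reads in the diploid libraries and 71.6 and 75.4 in the tetraploid ones. Small antimicrobial peptides of the list used here were mostly too low to test. Of 12 tested, the thionin gene THI2.2 fell from 484 and 466 to 21.5 and 20.8 (−4.49 ± 0.30, the authors' deposited table). LCR68 rose (0.29 ± 0.09, the authors' deposited table).

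**Figure D3:**
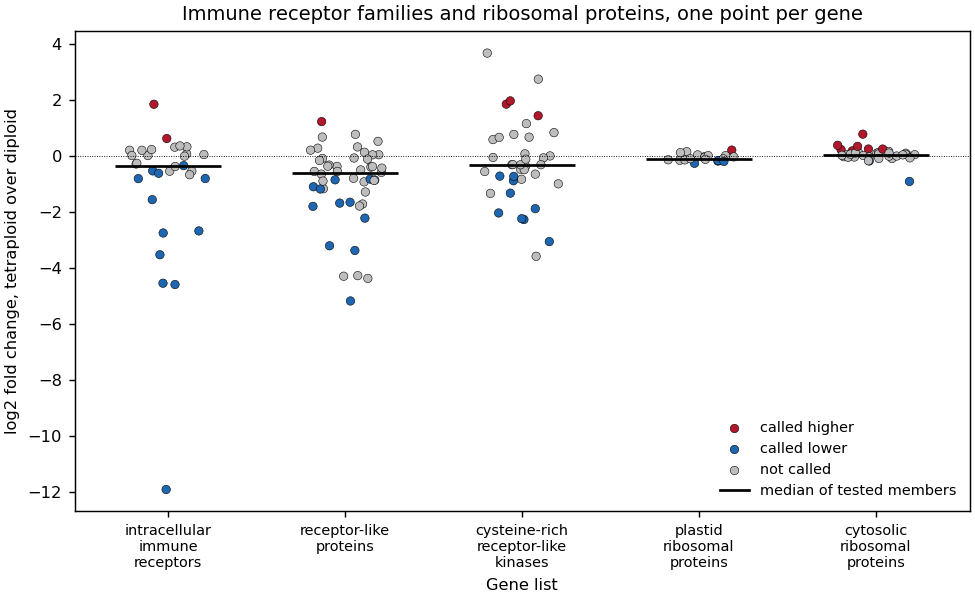
Log2 fold change of tetraploid over diploid Col-0 for each tested member of 3 immune receptor families and 2 ribosomal protein lists, 1 point per gene. Red and blue points were called higher and lower, grey points were not called, and bars are medians. Intracellular immune receptors spread from −11.90 to 1.84 (the lowest is VICTL, a fitted value without tetraploid reads), whereas plastid ribosomal proteins stay between −0.26 and 0.21.

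Tubulins, the subunits of microtubules, rose in 6 of 15 tested genes and fell in 1, with a median of 0.18. Of all tested genes 7.13 percent rose. Of those with means from 1000 to 10000, the range of TUA3 and TUA4, 577 of 3683 rose. TUA4 had 6189 and 5935 normalized reads in diploids and 7639 and 8456 in tetraploids (0.41 ± 0.07, the authors' deposited table), and TUA3 3726 and 3711 against 4682 and 4737 (0.34 ± 0.07). TUA1 went the other way, from 1104 and 1143 to 762 and 857 (−0.47 ± 0.12, the authors' deposited table). These alpha-tubulin genes are close copies, and with an empirical null 2 of the 6 higher calls were left. In the actin cytoskeleton 1 of 23 rose and 3 fell, ACT11 from 1193 and 1194 to 741 and 733 (−0.69 ± 0.11) and ACT2, the most expressed actin gene named here, from 14018 and 13805 to 11463 and 11103 (−0.30 ± 0.06) in the authors' deposited table.

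Mitotic A-type and B-type cyclins and B-type CDKs, which drive entry into mitosis, gave 4 rises and 0 falls among 23 tested, with a median of 0.25. CYCB2;3 had 295 and 226 normalized reads in diploids and 416 and 458 in tetraploids (0.74 ± 0.19, the authors' deposited table), and CYCB1;2 764 and 722 against 893 and 1007 (0.35 ± 0.12). None had a fall at an unadjusted p under 0.05 or by limma. Log2 fold changes were above 0 in 18 of the 23, but 0 calls were left with an empirical null. D-type cyclins, which act at the start of the cycle, gave 0 calls among 10 in the authors' DESeq2 fit. CYCD2;1 was the 1 gene with an unadjusted p under 0.05, at −0.35 ± 0.16 in the authors' deposited table, and limma called 1 of the 10. CYCD3;1 gave −0.13 ± 0.13 there.

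Inhibitors of cyclin-dependent kinases can end mitotic cycles and lead to endoreduplication, the copying of DNA without division. Of 11 tested, 2 rose. SIM, which starts endoreduplication in trichomes, had 144 and 152 normalized reads in diploids and 232 and 241 in tetraploids (0.68 ± 0.23, the authors' deposited table). SMR7, an inhibitor induced by DNA damage, had 4.38 and 1.01 against 35.8 and 20.8, a difference of 10.2-fold by the authors' deposited table (3.36 ± 0.97) that rests on low counts. DNA damage response genes rose in 4 and fell in 1 of 22, the DNA ligase gene LIG4 by 0.47 ± 0.16 in the authors' deposited table. The subunits of ribonucleotide reductase moved apart, RNR1 at 0.28 ± 0.08 and RNR2A at −0.36 ± 0.12 in the authors' deposited table. None of the CDK inhibitor or DNA damage calls was left with an empirical null.

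Core histones gave 2 rises and 5 falls among 21. H2AXA, a histone H2A variant that marks DNA breaks, rose from 1461 and 1658 to 2507 and 2477 normalized reads (0.68 ± 0.09, the authors' deposited table), while the low H3-like gene HTR11 gave the largest fall (−2.03 ± 0.71) and the H2B gene HTB11 fell from 2441 and 2453 to 1734 and 1771 (−0.48 ± 0.08). Histone mRNAs of the S phase lack poly(A) tails in animals but carry them in plants, so poly(A) selection retains them here. Of 25 RNA silencing factors 5 rose and 0 fell. SGS3, which stabilises RNA for copying into double-stranded RNA, rose from 264 and 219 to 681 and 671 (1.48 ± 0.16, the authors' deposited table), and NRPE1, the largest subunit of RNA polymerase V, from 317 and 355 to 545 and 489.5 (0.63 ± 0.16). Falls at an unadjusted p under 0.05 numbered 2, and limma called 3. AGO4, DCL4 and AGO10 made up the other calls, and with an empirical null 1 of the 5 calls was left.

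Ribosomal proteins in the 2 lists used here had small changes, all under 2-fold. The lists are not complete, and ribosomal protein genes outside them, among locus codes without a name, were not counted. Of 38 cytosolic ones 7 rose and 2 fell, RPL16B from 4229 and 4080.0 to 5409 and 5411 normalized reads (0.38 ± 0.07, the authors' deposited table) and RPL3B from 1048 and 986 to 562 and 520.1 (−0.91 ± 0.13). Of 19 plastid ones 1 rose and 4 fell, PRPS1 from 15511 and 14669 to 12599 and 12549 (−0.26 ± 0.06, the authors' deposited table). The difference between the lists was not tested, and with an empirical null 1 rise and 1 fall of the cytosolic and 0 rises and 1 fall of the plastid ones were left. Proteasome subunits gave 1 rise and 1 fall among 35, RPN6 at 0.28 ± 0.09 and PAC1, an alpha subunit, at −0.31 ± 0.08 in the authors' deposited table.

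**Figure D4:**
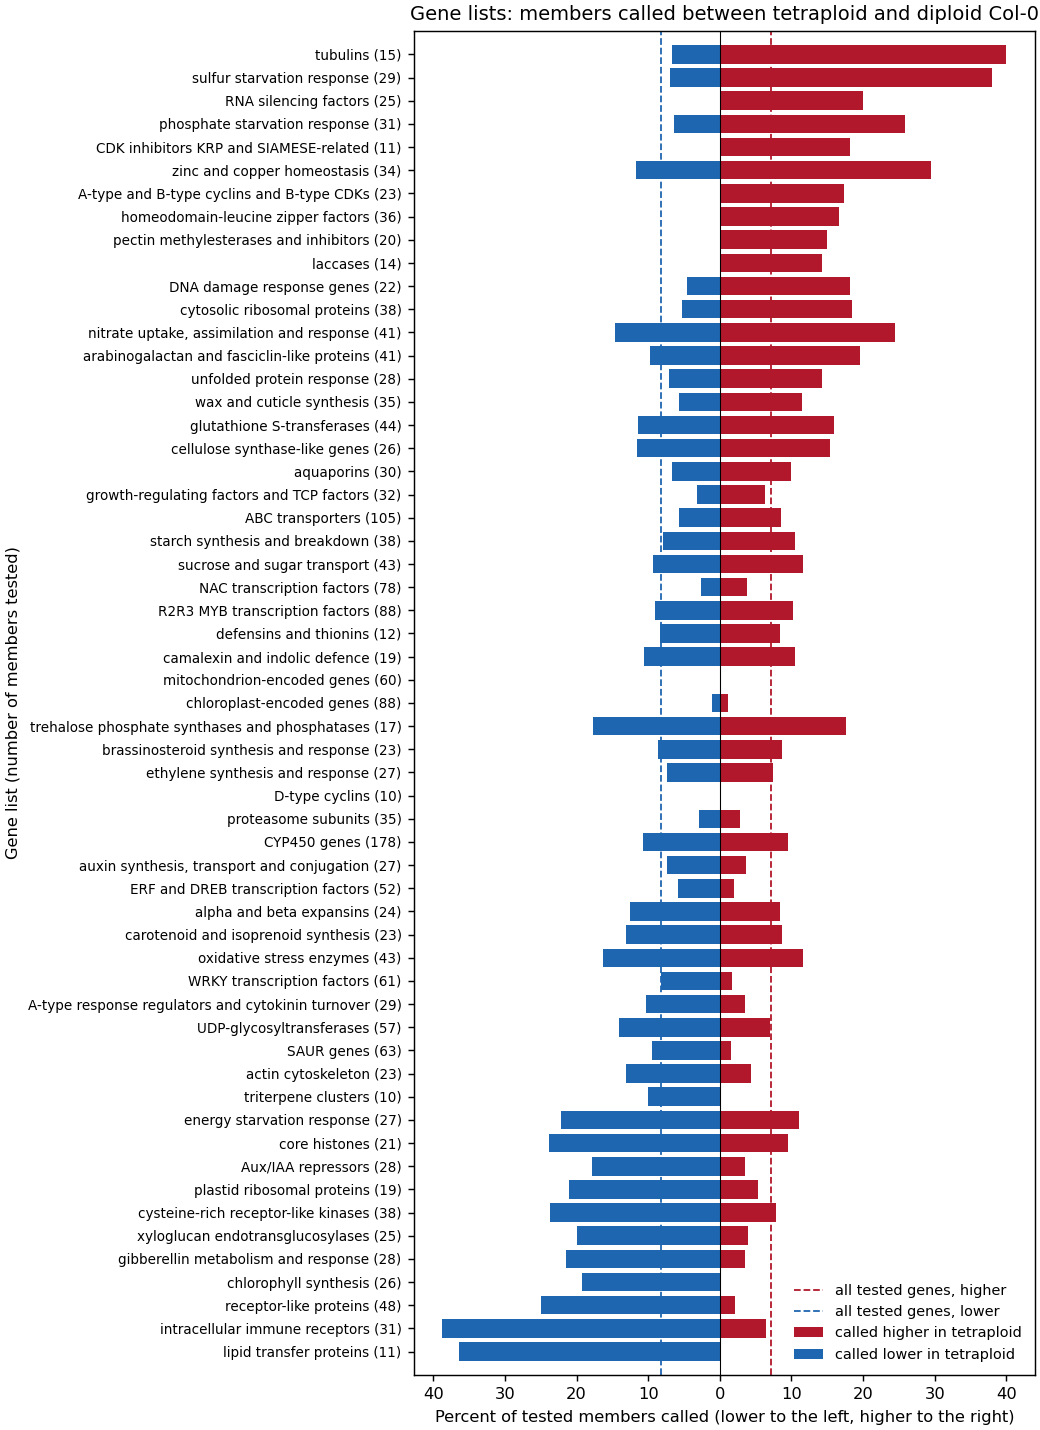
Percent of the tested members of 57 gene lists called lower (blue, to the left) and higher (red, to the right) in tetraploid Col-0, with the number of members tested in brackets. Dashed lines give the share of all tested genes called lower (8.23 percent) and higher (7.13 percent). Lipid transfer proteins and immune receptors stand at the lower end and tubulins and sulfur starvation genes at the upper end.

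Cell wall families were mixed. Xyloglucan endotransglucosylases, which cut and rejoin the hemicellulose that ties cellulose together, fell in 5 and rose in 1 of 25, with a median of −0.32. XTH27 fell from 3286 and 3388 to 1267 and 1172 normalized reads (−1.45 ± 0.09, the authors' deposited table), XTH4 from 4282 and 4876 to 3181 and 3215 (−0.52 ± 0.08), and XTH17 rose from 122 and 119.6 to 259.8 and 297 (1.21 ± 0.23). Expansins, which loosen walls, gave 2 rises and 3 falls among 24. These are 8.33% and 12.5%, against 7.13 percent and 8.23 percent of all tested genes. EXPA15 rose from 518 and 587 to 967 and 1072 (0.89 ± 0.13, the authors' deposited table), and the expansin-like gene EXLB1 fell from 277 and 205 to 12.3 and 21.9 (−3.83 ± 0.38). EXLB1 lies in the same window of 50 genes on chromosome 4 as SNC1.

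Arabinogalactan and fasciclin-like proteins, glycoproteins of the cell surface, rose in 8 and fell in 4 of 41. With an empirical null 1 of the rises and all 4 falls were left, which turns the balance of the list. AGP5 had 267 and 119.6 normalized reads in diploids and 5.11 and 4.37 in tetraploids (−5.35 ± 0.61, the authors' deposited table) and AGP17 1930.4 and 2166 against 1106 and 1042 (−0.93 ± 0.10). The diploid libraries of AGP5 themselves differed clearly. Among 26 cellulose synthase-like genes 4 rose and 3 fell, CSLB03 from 845 and 894 to 2852 and 2332 (1.58 ± 0.11, the authors' deposited table). Pectin methylesterases and their inhibitors gave 3 rises among 20, PMEPCRA at 0.99 ± 0.12, and laccases, which polymerise lignin, 2 among 14, LAC11 at 1.35 ± 0.27 in the authors' deposited table. Neither list had a fall in the authors' DESeq2 fit, and limma called 1 fall in each.

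Lipid transfer proteins and wax genes act at the outer surface of the shoot. Of 11 lipid transfer proteins 4 fell and 0 rose, LTP5 from 4955 and 5787 to 3141 and 3037 normalized reads (−0.80 ± 0.08, the authors' deposited table) and LTP6 from 1466 and 1672 to 945 and 1012 (−0.68 ± 0.11). At an unadjusted p under 0.05 there were 0 rises of lipid transfer proteins, and limma called 1. Wax and cuticle genes rose in 4 and fell in 2 of 35. These wax shares, 11.4% and 5.71%, lie near those of all tested genes, and with an empirical null 2 falls of lipid transfer proteins and 2 rises of wax genes were left. CER26, which helps to elongate the longest wax precursors, rose from 1624 and 1747 to 2434 and 2456 (0.54 ± 0.09, the authors' deposited table), and CER3, needed for alkane synthesis, fell from 2917 and 2807 to 2375 and 2169 (−0.33 ± 0.08).

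Of 28 Aux/IAA genes, which encode auxin-induced repressors of auxin response, 5 fell (17.9% against 8.23 percent of all tested genes) and 1 rose. With an empirical null 2 of these falls were left. IAA17 had 1399 and 1579 normalized reads in diploids and 739 and 708 in tetraploids (−1.04 ± 0.11, the authors' deposited table), IAA4 721 and 604 against 387 and 378 (−0.79 ± 0.15), and IAA9, which differs from most members in being little induced by auxin, 2553 and 2529 against 3278 and 3238 (0.36 ± 0.08). The SAUR genes, a family of small growth-related genes induced by auxin, gave 6 falls and 1 rise among 63, of which many were low, and 9.52% lower is near the share of all genes. SAUR78 fell from 2473 and 2548 to 1673 and 1631 (−0.60 ± 0.08, the authors' deposited table), and SAUR63 and SAUR64, neighbours on chromosome 1, gave −1.55 ± 0.32 and −3.13 ± 0.52 in the authors' deposited table. Auxin synthesis, transport and conjugation gave 1 rise and 2 falls among 27, also near it. GH3.9, of the family that conjugates auxin to amino acids, fell from 342 and 386 to 45.0 and 30.6 (−3.26 ± 0.28, the authors' deposited table).

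Gibberellins promote stem and leaf growth, and their synthesis is reduced when the response is active. Of 28 genes of their metabolism and response 6 fell and 1 rose. The synthesis genes GA20OX1 and GA3OX1 fell from 105 and 88.1 to 20.5 and 16.4 and from 631 and 549 to 356 and 309 normalized reads, at −2.39 ± 0.46 and −0.83 ± 0.16 in the authors' deposited table. RGL2, a DELLA repressor of gibberellin response known mainly from seed germination, rose from 265 and 282 to 605 and 614 (1.16 ± 0.16, the authors' deposited table), and SCL3, which opposes DELLA proteins, fell from 696 and 759 to 483 and 467 (−0.61 ± 0.14). All 4 separated the ploidies in every library.

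The cytokinin response regulators ARR4, ARR5 and ARR9, which are induced by cytokinin and dampen its signal, were called lower at −0.56 ± 0.08, −1.23 ± 0.28 and −0.69 ± 0.14 in the authors' deposited table, and LOG8, which releases active cytokinin, was called higher at 0.68 ± 0.12. They were the 1 rise and 3 falls among 29 genes of that list. In ethylene synthesis ACO4, which encodes an enzyme of the last step, rose from 2481 and 2059.8 to 3118 and 3141 normalized reads (0.46 ± 0.09, the authors' deposited table). ACS6, a stress-induced enzyme of the step before, fell from 598 and 505 to 314 and 286 (−0.88 ± 0.17, the authors' deposited table), and the list gave 2 rises and 2 falls among 27. Brassinosteroid genes gave 2 rises and 2 falls among 23. The synthesis gene CYP85A1 rose from 3.5 and 5.07 to 35.8 and 28.4 (2.92 ± 0.83, the authors' deposited table) and the inactivating gene CYP72B1, also called BAS1, fell from 95.4 and 110.4 to 44.0 and 33.9 (−1.40 ± 0.39), both at low counts and without calls under an empirical null.

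Nutrient lists held more rises than falls. Sulfur starvation and assimilation genes rose in 11 and fell in 2 of 29 tested, 37.9% against 7.13 percent of all genes, with a median of 0.29. APK1 and APK2, which make the activated sulfate used to finish glucosinolates, rose from 1951 and 1666 to 4722 and 4721 and from 1794 and 1518 to 4089 and 4175 normalized reads, at 1.38 ± 0.09 and 1.32 ± 0.09 in the authors' deposited table. APS3, an ATP sulfurylase, had 707 and 599.8 against 1248 and 1372 (1.00 ± 0.12, the authors' deposited table), while its relatives APS1, APS2 and APS4 gave 0.33 ± 0.07, −0.33 ± 0.07 and −0.50 ± 0.17 there. Transport and reduction also rose: SULTR2;1, a sulfate transporter, by 0.55 ± 0.09 and the reductase genes APR1 and SIR by 0.43 ± 0.11 and 0.17 ± 0.06 in the authors' deposited table. Isoforms of ATP sulfurylase thus moved both ways, and with an empirical null 7 of the 11 rises were left.

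Zinc and copper genes rose in 10 and fell in 4 of 34, 29.4% and 11.8%, against 7.13 percent and 8.23 percent of all tested genes. COPT2, a copper importer of the cell surface induced by copper shortage, rose from 103 and 83.1 to 462 and 447 normalized reads (2.28 ± 0.21, the authors' deposited table). Cells short of copper are known to replace copper-zinc superoxide dismutases with the iron enzyme FSD1. In these libraries FSD1 fell from 7994 and 9685 to 5029 and 4856 (−0.84 ± 0.08, the authors' deposited table). The copper-zinc enzymes CSD1 and CSD2 and their copper chaperone CCS rose by 0.51 ± 0.09, 0.30 ± 0.07 and 0.35 ± 0.10 there. Copper supply as a cause of these or of the COPT2 values was not tested. NAS4, which makes the metal chelator nicotianamine, rose from 1034 and 964 to 1547 and 1558 (0.64 ± 0.10, the authors' deposited table), and NAS3 of the same family fell (−0.93 ± 0.24). With an empirical null 4 rises and 2 falls of this list were left.

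Phosphate starvation genes rose in 8 and fell in 2 of 31. SPX1, a phosphate sensor that is itself induced by shortage, rose from 350.0 and 406 to 893 and 888 normalized reads (1.24 ± 0.14, the authors' deposited table), G3Pp1, a glycerol 3-phosphate permease, from 2091 and 2165 to 4185 and 3653 (0.88 ± 0.09), and the acid phosphatase gene PAP17 from 698 and 783 to 1263 and 1235 (0.75 ± 0.11). PPCK1, which activates phosphoenolpyruvate carboxylase, fell from 1546 and 1482 to 862 and 837 (−0.83 ± 0.10, the authors' deposited table). With an empirical null 6 of the rises were left. Nitrate genes gave 10 rises and 6 falls among 41, 24.4% and 14.6%, against 7.13 percent and 8.23 percent of all tested genes. Assimilation genes were among the rises, GLT1 from 6700.3 and 6687 to 9898 and 9481 and GLN1;1 from 494 and 369 to 932 and 895 (0.53 ± 0.06 and 1.08 ± 0.15, the authors' deposited table), and transporters among the falls, NRT1.5 from 786 and 802 to 185 and 166 and the vacuolar carrier CLCA from 2615 and 2609.9 to 1833 and 1637 (−2.18 ± 0.16 and −0.59 ± 0.09, the authors' deposited table).

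Carbon supply genes held falls in the response to energy starvation. Of 27 such genes 6 fell and 3 rose. TPS8, a trehalose phosphate synthase-like gene induced by low sugar, fell from 705 and 589 to 229 and 276 normalized reads (−1.36 ± 0.17, the authors' deposited table), EXL1 from 284 and 202 to 63.4 and 52.4 (−2.07 ± 0.30), and BZIP53, a transcription factor of the low-energy response, from 536 and 561 to 264 and 281 (−1.01 ± 0.16). In a separate list of trehalose phosphate synthases and phosphatases 3 rose and 3 fell among 17. These are 17.6% each, against 7.13 percent and 8.23 percent of all tested genes. The phosphatase gene TPPJ of that list rose from 302 and 237 to 828 and 822 (1.61 ± 0.16, the authors' deposited table). Starch genes gave 4 rises and 3 falls among 38, with the beta-amylase gene CT-BMY, which degrades leaf starch at night, higher at 15951 and 18117 against 25562 and 24765 (0.56 ± 0.07, the authors' deposited table). Of 43 sugar transport genes 5 rose and 4 fell, the phloem-loading exporter SWEET12 from 376 and 283 to 70.6 and 117 (−1.82 ± 0.27, the authors' deposited table).

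Chlorophyll synthesis held 0 rises and 5 falls among 26 genes by the authors' DESeq2 fit. The falls are 19.2%, against 8.23 percent of all tested genes. Of all tested genes with means from 1000 to 10000, 489 of 3683 fell, and of those from 10000 up, 51 of 278. HEMA1, which controls the entry into the pathway, fell from 18411 and 20139.8 to 11549 and 10866 normalized reads (−0.78 ± 0.07, the authors' deposited table), CH1, which makes chlorophyll b, from 7503 and 7544 to 5824 and 5433 (−0.42 ± 0.07), and CHLM from 9092 and 9274 to 7372 and 7235 (−0.33 ± 0.06). At an unadjusted p under 0.05 there was 1 rise, and by limma 0. Each of these genes is strongly expressed, and 4 of the falls were left with an empirical null. Carotenoid and isoprenoid genes gave 2 rises and 3 falls among 23, ABA1 at −0.41 ± 0.07 and CHY2 at 0.43 ± 0.10 in the authors' deposited table.

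Genes encoded in the organelles had positive medians and few calls. Of 88 tested chloroplast genes 1 rose and 1 fell, with a median of 0.40, and of 60 mitochondrial genes the authors' DESeq2 fit called 0, against 2 at an unadjusted p under 0.05, and 2 by limma, with a median of 0.48. Summed normalized reads of the tested chloroplast genes were 9822 and 12345 in the diploid and 18493 and 9463 in the tetraploid libraries, so that tetraploid library a alone stood high. Without that library the median of the chloroplast genes, from limma, was −0.16 against 0.30 with all 4, and that of the mitochondrial genes −0.02 against 0.24. Organelle transcripts mostly lack poly(A) tails, and they held 0.0499% to 0.0957% of recovered reads for the chloroplast and 0.00239% to 0.00609% for the mitochondrion.

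Families of specialized metabolism had calls in both directions. Of 178 cytochrome P450 genes 17 rose and 19 fell, near the shares of all genes. CYP83A1, the step after CYP79F1 in aliphatic glucosinolate synthesis, rose from 4942 and 4489 to 10614 and 10372 normalized reads (1.15 ± 0.07, the authors' deposited table), and CYP74B2, a hydroperoxide lyase gene of green leaf volatile synthesis, from 257 and 260.4 to 1029.9 and 972 (1.95 ± 0.14). CYP706A5 fell from 977 and 986 to 147 and 144 (−2.75 ± 0.16, the authors' deposited table). Glutathione S-transferases gave 7 rises and 5 falls among 44. GSTF9 rose from 7901 and 6801 to 18065 and 19246 and GSTU20 from 6106 and 5219 to 12461 and 13781 (1.34 ± 0.07 and 1.21 ± 0.08, the authors' deposited table).

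UDP-glycosyltransferases, which attach sugars to small molecules, fell in 8 and rose in 4 of 57. UGT74B1, which acts in glucosinolate synthesis, rose from 1721 and 1492 to 2751 and 2735 normalized reads (0.77 ± 0.09, the authors' deposited table), and UGT88A1 fell from 2619 and 2775 to 1392 and 1262 (−1.02 ± 0.09). In the list of camalexin and indolic defence 2 rose and 2 fell among 19, the glucosidase genes BGLU18 and PYK10 at −0.85 ± 0.09 and −0.61 ± 0.09 and the glutathione-processing gene GGP1 at 0.75 ± 0.10 in the authors' deposited table. Among 10 tested triterpene genes LUP1 alone was called (−1.08 ± 0.39, the authors' deposited table). ABC transporters gave 9 rises and 6 falls among 105, ABCC8 from 1292 and 1400.2 to 483 and 479.7 (−1.48 ± 0.12, the authors' deposited table), and aquaporins 3 and 2 among 30, PIP1C from 7915 and 8486 to 11626 and 12139.7 (0.54 ± 0.06, the authors' deposited table).

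Stress lists showed no common direction. Oxidative stress enzymes rose in 5 and fell in 7 of 43, the glutathione peroxidase gene GPX7 from 882 and 1014 to 2201 and 2043 normalized reads (1.16 ± 0.10, the authors' deposited table) and the catalase gene CAT3 from 5226 and 4984 to 3446 and 3668 (−0.52 ± 0.07). The unfolded protein response gave 4 rises and 2 falls among 28. TIN1 and the sensor IRE1A rose by 1.66 ± 0.33 and 0.60 ± 0.16, while the chaperone gene BIP1, a standard target of this response, fell, at −0.45 ± 0.07 in the authors' deposited table. The genes of this response therefore did not move together.

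Most transcription factor families gave few calls. Of 78 NAC genes 3 rose and 2 fell, of 52 ERF and DREB genes 1 and 3, and of 61 WRKY genes 1 and 5. The ERF gene RAP2.6 had 0 and 1.01 normalized reads in diploids and 60.3 and 44.8 in tetraploids (6.80 ± 1.53, the authors' deposited table), a ratio with a 95% exact interval of 19.7 to 4488 since it had 1 diploid read. WRKY62 had 8.75 and 5.07 against 40.9 and 52.4 (2.74 ± 0.68, the authors' deposited table), and NAC003 197 and 145 against 50.1 and 52.4 (−1.74 ± 0.32). R2R3 MYB genes gave 9 rises and 8 falls among 88. MYB76, an activator of aliphatic glucosinolate synthesis, rose from 71.8 and 54.7 to 175 and 213 (1.61 ± 0.30, the authors' deposited table), and MYB70 fell from 611 and 516 to 216 and 233 (−1.33 ± 0.18).

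Homeodomain-leucine zipper factors gave 6 rises and 0 falls among 36 by the authors' DESeq2 fit. HB5, HB6, HB-7 and HB-12 belong to the class linked to abscisic acid and water shortage, and HB-12 rose from 418 and 563 to 1056 and 905 normalized reads (1.00 ± 0.15, the authors' deposited table) and HB5 from 977 and 997 to 1713 and 1640.1 (0.77 ± 0.10). HDG5, of the class expressed in the epidermis, rose from 302 and 323 to 712 and 711 (1.19 ± 0.15, the authors' deposited table). At an unadjusted p under 0.05 there was 1 fall, and limma called 1. The median of the list was 0.04. Growth-regulating factors and TCP factors, which set leaf size, gave 2 rises and 1 fall among 32, TCP9 at 0.60 ± 0.11 and TCP1 at −3.14 ± 0.89 in the authors' deposited table.

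Some genes had reads in both libraries of 1 ploidy and none in the other. Called genes with 0 tetraploid reads numbered 103 and those with 0 diploid reads 44, and 17 and 3 of them had means of at least 100. AT1G66100 had 3743 and 4031 normalized reads in the diploid libraries, AT3G47250 had 2025 and 2042 and PLC8, a phosphoinositide phospholipase C gene, 1627 and 1759.9, against 0 reads in both tetraploid libraries. AT5G49440, AT3G44430, AT4G07825 and AT3G61010 followed, at least 916-, 713-, 371- and 361-fold lower against the floor of 3 reads. In the other direction AT3G24542 had 905 and 947 normalized reads in the tetraploid libraries, AT4G07965 755 and 887 and AT1G50980 255 and 278, against 0 diploid reads. AT3G47250 and PLC8 lie close to each other on chromosome 3.

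Many of the genes without reads in 1 ploidy of Col-0 were not listed in the Ler table. Of those without tetraploid reads, 54.4% were listed in Ler, and of those without diploid reads 68.2%, against 94.9% of all tested Col-0 genes, shares given as a description with no test. Of genes called and changed at least 2-fold, 87.8% were listed. The genes without reads in 1 ploidy were mostly low, with median means of 21.2 and 10.1. Shares were not compared at equal means. A name in the gene table was held by 11 of the 103 and 8 of the 44. The genes fell on all 5 chromosomes, from 11 without tetraploid reads on chromosome 2 to 28 on chromosome 1. Named genes beside VICTL and PLC8 included AT14A, with 384 and 216 normalized reads in diploids, DRP4A, a dynamin-related gene, with 174 and 176, and the P450 gene CYP71A24, with 18.4 and 16.2 in diploids, all with 0 in tetraploids. In the other direction they included the P450 genes CYP81D11 and CYP705A1, with 21.5 and 27.3 for the first and 13.3 and 16.4 for the second in tetraploids and 0 in diploids.

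Along the chromosomes, tested nuclear genes were taken in the order of their locus codes in windows of 50. A window held a median of 2 genes called and changed at least 2-fold, 59 of 423 windows held 0, and 8 held at least 20%. The densest, AT1G24807 to AT1G25550 on chromosome 1, held 16, 12 of them lower. It consists largely of repeated copies, such as LpxC2, LpxC3 and LpxC4, and reads shared between copies make its values uncertain. The second, AT1G58300 to AT1G59830, with 12 genes, is the repeated stretch that gave 4 of the 12 lowest statistics.

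The window AT3G43430 to AT3G44530 on chromosome 3 held 11 genes, RPP1 and AT3G44430 among them, and AT4G16630 to AT4G17140 on chromosome 4 held 10, among them SNC1 and AT4G16900. On chromosome 5, AT5G44450 to AT5G45000 held 11 and the next window, ending at AT5G45510, 10. Window AT4G07400 to AT4G08870 on chromosome 4 held 11, of which 7 were higher, and 5 called genes without reads in 1 ploidy. In this order 163 pairs of the 1093 nuclear genes changed at least 2-fold stood directly beside each other, and 113 of these pairs moved in the same direction. The numbers to be met without any grouping were not computed. Since 62.0% of genes changed at least 2-fold were lower, many pairs share a direction in any order. Whole chromosomes differed little, with the share called between 14.2% on chromosome 3 and 16.9% on chromosome 1 and medians of strongly expressed genes between −0.03 and 0.03 on the log2 scale.

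**Figure D5:**
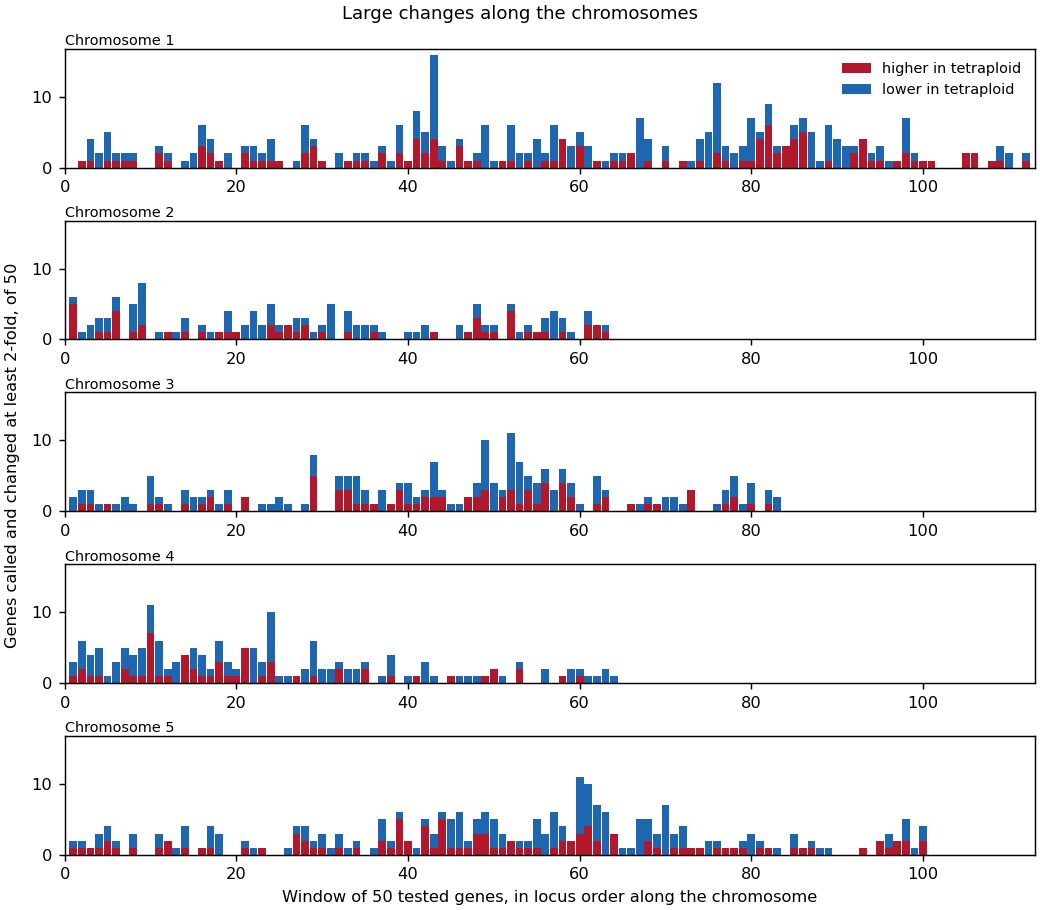
Number of genes called and changed at least 2-fold (vertical axis) in consecutive windows of 50 tested genes, in the order of locus codes along each of the 5 chromosomes (horizontal). Red parts are genes higher and blue parts genes lower in the tetraploid. The tallest bar, on chromosome 1, holds 16 genes, and 8 windows reach at least 10.

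The Ler table does not state its sign either, and it was read like the Col-0 table, to which its header and layout are equal. Set beside tetraploid against diploid Ler, most of the strongest Col-0 changes were not called. Of the 24 genes with the highest and lowest statistics, 21 were listed in Ler and 2 were called there, where 5.1 percent of tested genes were. SNC1 gave 0.00 ± 0.14 in Ler against −3.53 ± 0.11 in Col-0, GSTU26 0.05 ± 0.36 against 3.55 ± 0.16, and AT3G62530 0.13 ± 0.08 against −4.88 ± 0.10, all from the authors' deposited tables. ESP was called higher in Ler too, at 0.58 ± 0.11, and HSP70 lower, at −0.63 ± 0.19, in the authors' deposited table. A two-sided Wald test of the difference between the ecotypes passed for 19 of the 21, with adjusted p of at most 0.00264 over 21361 shared genes. With the Ler table read with the other sign, an alternative added after seeing the data, the same 19 passed, but the directions given for Ler would turn.

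Mean levels in Ler, taken over both ploidies in a table normalized separately, did not sit with diploid Col-0 for some of these genes. ESP had a mean of 40263 in the authors' deposited Ler table, near the tetraploid Col-0 libraries (65267 and 63826) and far from the diploid ones (526 and 523). ESM1 had a mean of 877 in the authors' deposited Ler table, also near tetraploid Col-0 (1009 and 974). For AT3G62530 and AT1G09590 the authors' deposited Ler means of 5565 and 5856 lay near diploid Col-0 instead. AT2G25450 had a mean of 2.58 in the authors' deposited Ler table, below both ploidies of Col-0.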

How the data were processed

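Per the labels' protocols, seedling RNA was extracted with an RNeasy kit, selected for poly(A) and prepared with NEBNext Ultra reagents. HISAT2, Subread, DESeq2 and the build TAIR10 appear in the submitters' processing notes, without versions or roles. The sources used here do not say if strand was used in counting, so overlapping and antisense genes are uncertain. Per the file headers, the authors deposited a mean normalized read count per gene (a signal over the 4 libraries), a log2 fold change between ploidies with its standard error, a Wald score, and p-values raw and Benjamini-Hochberg adjusted. Genes without a deposited adjusted p were not tested.

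The table holds no counts per library, so the authors' adjusted p under 0.05 was the call, the fallback of the planned test. Reads per library were recovered as the whole numbers that, divided by the 4 size factors read from the lowest means, give the deposited mean within a relative 8e-15. A fold change within 0.001 was a further check. It could not be made where a ploidy had 0 reads. A sole solution did not need it at a mean under 10 or with at most 3 reads in a ploidy. Of recovered genes with a mean of at least 10, 113 had a ploidy too low for this check. The median gap in log2 fold change was 1.4e-07 over 18828 genes. limma 3.58.1 (R 4.3.3) was run on log2(normalized reads + 0.5), and recovery and limma were tested on simulated data. For Ler minus Col-0 a two-sided Wald test used the deposited log2 fold changes and errors, Benjamini-Hochberg adjusted over shared genes, although the Ler table was normalized separately. Names come from a gene table of TAIR10.1, which matched 98.7% of genes and gave no coordinates here. Floors of 3 reads and exact 95% intervals cover counting error only.

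The text names the 12 called genes with the highest and the 12 with the lowest statistic, up to 4 called members of each list by statistic (or 2 by p where 0 were called) and the 8 genes of highest mean without reads in each ploidy. VICTR, RLP23, CRK7, CRK18, CRK21, CRK23, AGO10, HB-7, HTR11, AT14A, DRP4A, the further sulfur, zinc and copper genes, WRR4, RPP13, TTR1, RRS1, RPP4 and the window genes outside that rule were chosen after their values were seen. Of the genes this rule names, 1 is not reported here. Members and lists were chosen with earlier results of these data known. Alternatives were adjustment without a filter or over genes with a mean of at least 10, a threshold of 0.01, an empirical null, recentred fold changes, limma, leaving out each library, up to 1 read as absent, and windows of 25 or 100 genes.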

Additional observations from a re-analysis of the deposited data

Results flagged for a closer look

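For 19 of the genes with the highest and lowest statistics in Col-0, the log2 fold change in Ler differed from that in Col-0 in the two-sided Wald test of the difference with Benjamini-Hochberg adjustment. Values here are Ler minus Col-0, computed from the authors' deposited tables, and the genes were chosen for their size in Col-0. Negative differences, from genes higher in tetraploid Col-0, were −6.36 for ESP, −3.99 for AT2G42170, −3.55 for HSP70, −3.5 for GSTU26 and −3.29 for AT3G18535. They were −2.84 for AT1G27580, −2.71 for AT1G27540, −1.78 for AK3, −1.68 for CYP79F1 and −1.58 for BCAT4. Positive differences, from genes lower in tetraploid Col-0, were 5.02 for AT3G62530, 4.23 for AT1G73490, 4.10 for AT3G44670, 4.00 for ESM1 and 3.53 for SNC1. They were 3.51 for AT1G58807, 3.13 for AT1G59218, 2.65 for AT1G58848 and 2.15 for AT1G09590. With the Ler table read like that of Col-0, since it states no sign, HSP70 is the 1 gene of these 19 called in opposite directions. It gave 2.92 ± 0.11 in Col-0 and −0.63 ± 0.19 in Ler by the authors' deposited tables. Read that way, EXLB1, outside these 19, was also called in opposite directions, −3.83 ± 0.38 in Col-0 and 1.36 ± 0.27 in Ler.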

How the results depend on the processing

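No paired analysis was possible because the recovered libraries carry no replicate numbers. The count of called genes stayed within 1.5 times of 3290 without a filter, with the filter on means, at a threshold of 0.01, with recentring and with limma, and fell to 1470 with the empirical null. Genes called and changed at least 2-fold went from 1094 to 712, and calls in the lists from 396 to 183. Leaving out 1 library, limma called 0 to 428 genes, 0 to 368 changed at least 2-fold and 0 to 35 in the lists, with the lone library of a ploidy assumed to vary like the other ploidy. The 0 calls came without either diploid library, where limma gave 6003 and 5803 genes at an unadjusted p under 0.05, and all 3284 called genes with a value kept their direction in every such fit. The densest window held 32% with 50 genes, 56.0% with 25 and 19% with 100, and 59 of 423, 295 of 848 and 5 of 211 windows held 0 such genes. Of the strongest genes, 1 in place of 2 was called in Ler at a threshold of 0.01. Among 241 named genes 0 reversed under any of these, 65 lost their call with the empirical null, 29 at 0.01 and 4 with limma, while 237 lost it without either diploid library and 172 and 174 without tetraploid library a and b. Depth limits genes with a mean under 10, of which 2.57% were called.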
